A study of Homo sapiens with 6 samples.

Results

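The tumour necrosis factor (TNF) superfamily was examined in COV434 cells with and without reexpression of BRG1. Its members were set by a rule on gene names, chosen with earlier results of these data known. The rule took every row of the count table whose symbol is TNFSF or TNFRSF followed by a number and an optional letter, together with TNF, LTA, LTB, LTBR, FAS, FASLG, CD27, CD70, CD40, CD40LG, NGFR, EDAR and EDA2R, without TNFSF10 and TNFRSF10A to TNFRSF10D. This gave 40 of the 19899 genes in the table, 16 ligands and 24 receptors. COV434 is an ovarian tumour cell line, handled by the study among its models of SCCOHT, a rare hypercalcemic ovarian cancer that lacks BRG1 protein. BRG1 is the SWI/SNF ATPase encoded by SMARCA4. All 6 samples were parental COV434 cells that received a plasmid for puromycin resistance (pBABE-puro) and were kept on puromycin at 2 to 3 µg/ml for 3 days, starting 24 hours after transfection. The 3 Control samples also received a control plasmid, named in the study's methods as pCMV-neo or pCDNA3-neo, and the 3 BRG1 samples PBJ5-BRG1. The plasmid backbone thus differs between the groups along with BRG1. The cells were a transiently transfected pool and not a clone, and in such bulk RNA more cells that express a gene and more RNA per cell cannot be told apart.

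Ligands of the TNF superfamily are mostly trimeric membrane proteins, several of which are released by proteolysis. They bind cysteine-rich receptors on the same or on neighbouring cells. Receptors with a cytoplasmic death domain recruit adaptors such as FADD and TRADD and can start caspase activation, whereas the other signalling receptors bind TRAF proteins and switch on NF-kappaB and MAP kinases. Decoy receptors bind ligand without signalling. Many members are best known from T cells, B cells and antigen-presenting cells, but epithelial, endothelial and stromal cells use FAS, the TNF receptors, the TWEAK receptor TNFRSF12A and others.

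Promoter sequence was read for the members called higher with BRG1, which moved in the same direction. RefSeq promoter windows (GRCh38.p14), which run from 250 bases before to 50 bases after a transcription start, were matched by symbol for 28 members (38 windows), among them 8 of the 10 called members (12 windows). NGFR and TNFRSF11B are named only. Windows were searched on both strands for AP-1 (TGANTCA), the interferon-stimulated response element (ISRE, GAAA and GAAA parted by 2 bases), GAS (TTCNNNGAA) and the NF-kappaB consensus. Of all 35116 windows in the table, 7.71% hold the AP-1 letters, 3.57% the ISRE, 7.66% the GAS and 5.91% the NF-kappaB letters. Of the 12 windows of called members, 3 hold AP-1 (FAS, TNFRSF9 and TNFSF15), 2 hold ISRE (both windows of TNFSF13B, which share the site), 1 holds GAS (TNFRSF9) and 2 hold NF-kappaB (FAS and TNFRSF9). Of all 38 member windows, called or not, 9 hold AP-1, 7 ISRE, 6 GAS and 10 NF-kappaB, and most of the 38 belong to members that were not called. Overlapping windows of TNFSF14, LTB, LTA and EDA2R also share sites. The window counts therefore exceed the number of separate sites. The 30-base stretches below, read 5′ to 3′ on the strand of the gene, show these matches in capitals. The windows of FAS lie wholly in exons of longer FAS and neighbouring transcripts of GENCODE release 44. Those of TNFRSF9 and TNFSF13B lie inside the spans of their genes. Of the 250 bases before the start, 94 are exonic for TNFRSF9 and 89 for the downstream start of TNFSF13B.
TNFRSF9 NF-kappaB, chr1:7940894-7940923, minus strand, 74 to 64 bases before the start and made of 2 overlapping matches: gagctgtggtGGGAATTTCCCatgagaccc
TNFRSF9 AP-1, chr1:7940866-7940895, minus strand, 44 to 38 bases before the start: cccgcccctggcTGAGTCAccgcactcctg
TNFRSF9 GAS, chr1:7941008-7941037, minus strand, 187 to 179 bases before the start: tagagagctgcTTCCAAGAAgcaatttgaa
FAS AP-1, chr10:88990548-88990577, plus strand, 242 to 236 bases before the start: caagttgcTGAATCAatggagccctcccca
FAS NF-kappaB, chr10:88991264-88991293, plus strand, 157 to 148 bases before another start: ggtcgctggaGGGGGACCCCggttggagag
TNFSF13B ISRE, chr13:108269637-108269666, plus strand, 71 to 62 bases before the downstream start and 18 to 27 bases inside the transcript of the upstream start: tacaaaaactGAAAGTGAAAtgaggaagac

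The 250 bases before the start are shown for TNFSF15, which holds an AP-1 match 120 to 114 bases before the start (capitals). They are also shown for TNFRSF21 and TNFSF18, whose windows hold none of the 4 motifs. These stretches overlap no exon of GENCODE release 44, but that of TNFSF15 lies inside the span of its gene there, before an internal start.
TNFSF15, chr9:114792531-114792780, minus strand: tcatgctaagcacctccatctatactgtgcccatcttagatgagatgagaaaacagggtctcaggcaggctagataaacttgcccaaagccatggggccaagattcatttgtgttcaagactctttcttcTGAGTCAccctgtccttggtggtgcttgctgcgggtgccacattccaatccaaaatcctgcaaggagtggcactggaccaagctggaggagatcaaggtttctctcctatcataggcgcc
TNFRSF21, chr6:47309906-47310155, minus strand: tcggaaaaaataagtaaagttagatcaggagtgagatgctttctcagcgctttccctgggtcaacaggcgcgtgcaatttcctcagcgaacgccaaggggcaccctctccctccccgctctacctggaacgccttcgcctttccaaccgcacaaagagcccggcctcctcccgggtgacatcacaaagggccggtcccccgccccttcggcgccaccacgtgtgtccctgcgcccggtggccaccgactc
TNFSF18, chr1:173050942-173051191, minus strand: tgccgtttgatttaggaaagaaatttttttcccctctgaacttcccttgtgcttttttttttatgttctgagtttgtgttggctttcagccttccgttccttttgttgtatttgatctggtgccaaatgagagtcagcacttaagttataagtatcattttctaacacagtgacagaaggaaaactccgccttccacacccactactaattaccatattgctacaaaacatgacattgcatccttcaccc
The windows of TNFSF4 and TNFRSF19 also held none of the 4 motifs. A match says only that the letters are present, and binding at these sites was not measured here.

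The transfected gene was examined first. SMARCA4 (GRCh38, chromosome 19, 10960932 to 11079426, plus strand) had 1460.5, 1696 and 1539 normalised counts in Control samples 1 to 3 and 106915, 79139 and 79818 in BRG1 samples 1 to 3, plasmid transcripts included, and was higher by 5.82 on the log2 scale (SE 0.17, edgeR adjusted p 6.11e-06). Normalised counts are the authors' estimated counts divided by each library's scaling factor. The libraries held 29699741 to 63613710 estimated counts, of which mitochondrial genes took 4.13% to 6.00%, and BRG1 sample 3 was the shallowest. A floor of 3 counts corresponds to 0.0472 to 0.101 CPM, the usual library-scaled count. Coordinates are those of GRCh38 in GENCODE release 44.

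TNF superfamily genes that changed were higher with BRG1. Of the 40 members, 23 passed the filter on low counts and were tested, 10 were called higher and 0 were called lower. The call was an edgeR quasi-likelihood test with Benjamini-Hochberg adjustment over all 14246 genes tested, at an adjusted p under 0.05. The 10 higher calls made up 25.0% of the 40 members, untested ones included, and 43.5% of the 23 tested. Of all genes tested, 9.57% were called higher and 1.02% lower. No lower member appeared before adjustment either (0 at an unadjusted p under 0.05, a level for which the share of all genes is not given here). DESeq2 called 13 members higher and 0 lower, where 10.7% and 1.78% of all genes with an adjusted p were called, and with the replicate block it called 14 and 0, beside 13.0% and 6.39%. Without the low-count filter edgeR called 10 higher and 0 lower, beside 8.10% and 0.823%. With the replicate block edgeR called 12 higher and 0 lower, beside 13.7% and 5.68%. The called members comprised 4 of the 16 ligands (TNFSF4, TNFSF18, TNFSF13B and TNFSF15), 3 of the 6 death domain receptors (FAS, NGFR and TNFRSF21), 1 of the 2 decoy or soluble receptors (TNFRSF11B) and 2 of the 16 other receptors (TNFRSF9 and TNFRSF19). Among the tested members the median log2 fold change was 0.65, against -0.042 for all tested genes. In 4 tested members (TNFRSF9, TNFRSF19, TNFSF13B and TNFSF18) every Control sample lay under 10 counts, and such genes entered the test only through their BRG1 values. All 4 are among the 10 called. The filter thus favoured the higher direction for them, which also enters the shares and the median above.

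The groups did not overlap in any of the 10 called members, so that the BRG1 sample necessarily exceeded the Control sample of the same number in all 3 replicate numbers. Over all members, 15 of 40 had no overlap with BRG1 higher and 0 with BRG1 lower. Among the genes with a count in any sample, 15.4% did not overlap with BRG1 higher, and among the tested genes 15.9% did, with 11.2% not overlapping in the lower direction. BRG1 sample 3 was the lowest of the BRG1 samples in 8 of the 10. Leaving that sample out raised the BRG1 mean of those 8, and all 10 calls were still made. Without BRG1 replicate 2, 6 calls were made, and without Control replicate 1, 7 were.

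**Figure D1:**
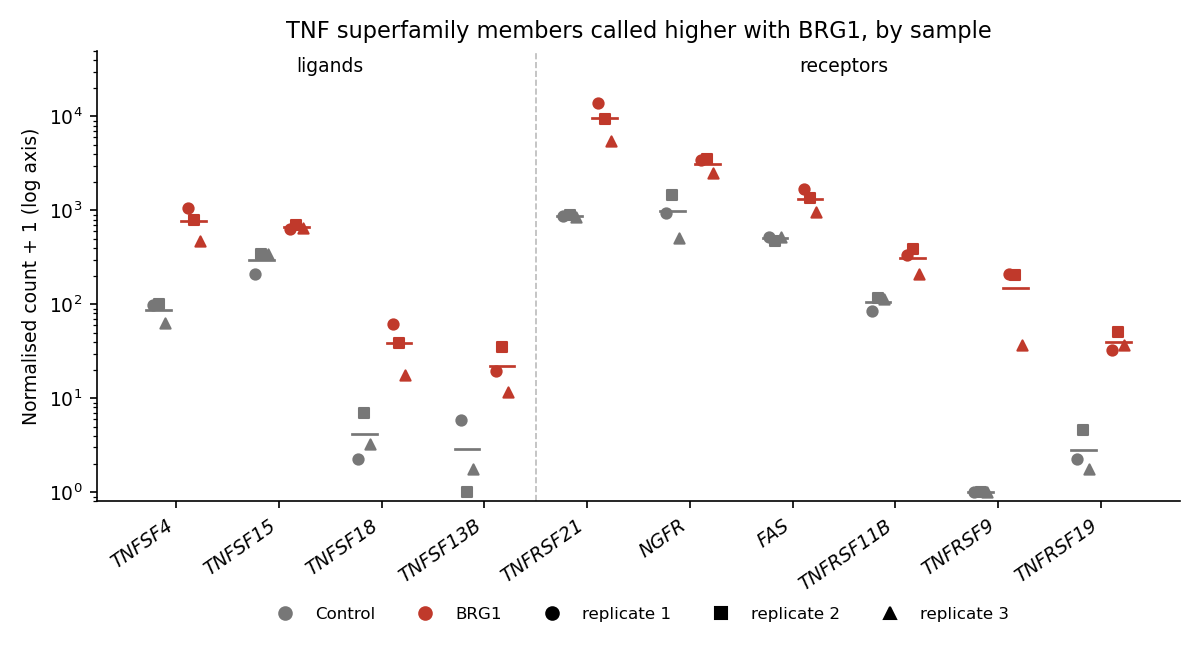
Normalised count plus 1 on a log axis for the 10 members called higher with BRG1, 4 ligands on the left and 6 receptors on the right. Points are single samples (circle, square and triangle for replicates 1 to 3; grey Control, red BRG1) and short lines are the group means. In every gene the red points lie above all grey points, and the red triangle is the lowest red point in 8 of 10 genes.

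Among the ligands, the costimulatory genes of chromosome 1 showed large increases. TNFSF4 (OX40 ligand, which binds TNFRSF4 on activated T cells; chromosome 1, 173183731 to 173207331, minus strand) had 97.7, 101 and 62.9 normalised counts in the Control samples and 1064, 787 and 469.9 in the BRG1 samples. Its mean rose from 87.1 ± 21.1 to 774 ± 297 (SD, n = 3), a gain of 3.16 on the log2 scale (SE 0.36, edgeR adjusted p 0.0011). The fold within replicate numbers was 10.9, 7.81 and 7.47, and the call was made in all 6 fits that left out a sample. TNFSF18 (GITR ligand, another T-cell costimulator; chromosome 1, 173039202 to 173050941, minus strand) was nearly silent in Control samples, at 1.24, 5.93 and 2.27, and reached 60.7, 37.4 and 16.7 in BRG1 samples. Its log2 fold change was 3.62 (SE 0.70, edgeR adjusted p 0.013), and the call was lost without Control replicate 1 (adjusted p 0.0561) or Control replicate 3 (0.0677). These genes are neighbours, 132.8 kb apart, and the next member on that side, FASLG, lies 372.3 kb from TNFSF18 and was at the floor, where every sample of a group holds 3 counts or fewer, in both groups.

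TNFSF15 (TL1A, the ligand of TNFRSF25 and of the decoy TNFRSF6B, known from endothelial and myeloid cells; chromosome 9, 114784652 to 114806039, minus strand) was already present in Control samples at 210.2, 343 and 341 normalised counts and stood at 631, 707 and 647 in BRG1 samples. The BRG1 samples lay close together, and the mean rose from 298 ± 76.0 to 662 ± 39.8 (SD, n = 3; log2 fold change 1.15, SE 0.23, edgeR adjusted p 0.0148). Without BRG1 replicate 2 its adjusted p was 0.0672. TNFSF8 (CD30 ligand), 87.3 kb away, had 8.66, 52.2 and 31.8 in Control and 20.0, 61.5 and 94.0 in BRG1 samples and was not called (adjusted p 0.575).

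TNFSF13B (BAFF, a survival factor for B cells; chromosome 13, 108251240 to 108308484, plus strand) had the weakest evidence of the called ligands. It held 4.95, 0 and 0.758 normalised counts across the Control samples and 18.6, 34.1 and 10.6 across the BRG1 samples, a log2 fold change of 3.55 with a wide 95% interval of 1.47 to 5.62 (edgeR adjusted p 0.0434). The call was lost without the filter on low counts (adjusted p 0.0515) and in 4 of the 6 fits that left out a sample, with adjusted p-values up to 0.165. Those were the fits without Control replicate 2 or 3 and without BRG1 replicate 1 or 2. Its relative TNFSF13 (APRIL; chromosome 17, 7558292 to 7561608, plus strand) had 131, 113 and 114 in Control and 218, 156 and 188 in BRG1 samples. The groups did not overlap, but the change of 0.65 on the log2 scale was not called (edgeR adjusted p 0.174), and 55.5% of its exonic bases are shared with the readthrough gene TNFSF12-TNFSF13.

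The founding ligands of the family were low in Control and were not tested by edgeR. TNF (chromosome 6, 31575565 to 31578336, plus strand) had 6.18, 2.37 and 0 normalised counts without BRG1 and 64.2, 26.6 and 3.03 with it, and LTA (lymphotoxin alpha; chromosome 6, 31572054 to 31574324, plus strand) had 2.47, 0 and 1.52 in Control and 40.7, 29.1 and 7.58 with BRG1. For TNF the lowest BRG1 sample fell among the Control samples, whereas for LTA the groups did not overlap. Both fell under the edgeR filter. DESeq2 called both (adjusted p 0.0451 for TNF and 0.00201 for LTA), and edgeR without the filter called LTA (0.0189) and not TNF (0.11). LTA was at the floor in Control, so that its increase was at least 8.11-fold. LTB (lymphotoxin beta) lies beside them, 2.2 kb from TNF, and held 4.95, 0 and 3.03 in Control and 11.4, 9.14 and 3.03 in BRG1 samples without being tested.

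The remaining ligands gave no call. TNFSF12 (TWEAK; chromosome 17, 7548508 to 7557890, plus strand), the ligand with the highest count, had 961, 923 and 1340.2 normalised counts in the Control and 835, 885 and 1267 in the BRG1 samples, with a log2 fold change of -0.11 (95% interval -0.63 to 0.40, edgeR adjusted p 0.84). Its groups overlapped. The costimulators TNFSF9 (4-1BB ligand) and CD70 had log2 fold changes of 0.12 and 0.07 with overlapping groups. TNFSF11 (RANKL) held between 1.19 and 18.2 normalised counts in any sample. TNFSF14 and FASLG stayed at the floor in both groups, and CD40LG had 0 counts in all 6 samples.

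Death domain receptors included the member with the largest gain in normalised count. TNFRSF21 (death receptor 6; chromosome 6, 47231532 to 47309905, minus strand) had 877, 902 and 844 normalised counts across the Control samples and 13808, 9448 and 5491 across the BRG1 samples. The Control samples were nearly equal, whereas the BRG1 samples spread widely, and the mean rose from 874 ± 29.0 to 9582 ± 4160.2 (SD, n = 3). The log2 fold change reached 3.46 (SE 0.32), and its edgeR adjusted p of 0.000415 was the lowest of any member. Within replicate numbers the fold was 15.7, 10.5 and 6.51.

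FAS (CD95, the receptor of FASLG, which recruits FADD and caspase-8; chromosome 10, 88953813 to 89029605, plus strand) had 514, 476 and 515 normalised counts without BRG1 and 1699, 1346 and 964 with it. Its mean rose from 502 ± 22.5 to 1336 ± 367 (SD, n = 3; log2 fold change 1.41, SE 0.22, edgeR adjusted p 0.00443), and both FAS and TNFRSF21 were called in all 6 fits that left out a sample. NGFR (the p75 neurotrophin receptor; chromosome 17, 49495293 to 49515008, plus strand) had 947, 1467 and 512 in Control and 3435, 3516 and 2497 in BRG1 samples, a log2 fold change of 1.69 (SE 0.35, edgeR adjusted p 0.0181). Control values of NGFR varied more than those of FAS, and the call was lost without Control replicate 1 (adjusted p 0.0793) or BRG1 replicate 2 (0.0663). Of its exonic bases 27.2% are shared with genes on the same locus such as NGFR-AS1, and the libraries do not keep strand.

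TNFRSF1A (TNF receptor 1, which signals through TRADD; chromosome 12, 6328757 to 6342114, minus strand) had 1897, 2454 and 2581 normalised counts in the Control and 3155, 3098 and 4131 in the BRG1 samples. The groups did not overlap, yet the difference of 0.58 on the log2 scale (95% interval 0.19 to 0.97) was not called by edgeR (adjusted p 0.0737). It was called with the replicate number as a block (edgeR adjusted p 0.00717) and by DESeq2 (0.0251). TNFRSF25 (death receptor 3; chromosome 1, 6460786 to 6466175, minus strand) had 407, 608 and 802 in Control and 624, 638 and 961 in BRG1 samples, with overlapping groups and an edgeR adjusted p of 0.661. EDAR, the receptor of ectodysplasin A1, held at most 4.55 normalised counts in any sample and was not tested.

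Of the receptors that bind ligand without signalling, osteoprotegerin was higher with BRG1. TNFRSF11B (osteoprotegerin, a soluble receptor of RANKL; chromosome 8, 118923557 to 118951885, minus strand) had 84.1, 116 and 113 normalised counts across the Control samples and 338, 385 and 209 across the BRG1 samples. Its mean rose from 104 ± 17.7 to 311 ± 91.0 (SD, n = 3; log2 fold change 1.57, SE 0.30, edgeR adjusted p 0.0119). Without Control replicate 1 the adjusted p was 0.0563 and without BRG1 replicate 2 it was 0.0634. TNFRSF6B (decoy receptor 3) had 12.4, 29.7 and 31.1 in Control and 0, 44.9 and 16.7 in BRG1 samples, but all of its exonic bases are shared with other genes and its value is uncertain.

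Receptors without a death domain included a pair with few or no counts in Control. TNFRSF9 (4-1BB, a costimulatory receptor of activated T cells; chromosome 1, 7915871 to 7943165, minus strand) had 0 counts in all 3 Control samples and 209, 204 and 36.4 normalised counts in BRG1 samples. Control was at the floor, and the increase was at least 47.1-fold (edgeR adjusted p 0.00717). TNFRSF19 (TROY, a receptor known from the developing nervous system and skin; chromosome 13, 23570370 to 23676104, plus strand) had 1.24, 3.56 and 0.758 in Control and 31.4, 49.9 and 36.4 in BRG1 samples, at least 12.3-fold higher (edgeR adjusted p 0.00229). Both were called in all 6 fits that left out a sample. These fits kept the genes that passed the low-count filter on all 6 samples. They therefore do not test the entry of this pair, which passed only through its BRG1 values.

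TNFRSF12A (Fn14, the TWEAK receptor; chromosome 16, 3018445 to 3022383, plus strand) had the highest level of all members per length. It held 8642, 10308 and 5514 normalised counts without BRG1 and 12122, 14268 and 7219 with it. The groups overlapped, sample 3 was the lowest in both, and the difference of 0.46 on the log2 scale was not called (edgeR adjusted p 0.462). Within replicate numbers the BRG1 sample was higher by 1.40, 1.38 and 1.31-fold, and edgeR with the replicate number as a block made the call (edgeR adjusted p 0.0067).

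CD40, EDA2R and TNFRSF11A showed no difference that could be called. CD40 (the receptor of CD40LG; chromosome 20, 46118271 to 46129863, plus strand) had 1083, 930.3 and 952 normalised counts in the Control and 1114, 975 and 969 in the BRG1 samples, and the 95% interval of its log2 fold change was -0.28 to 0.37. EDA2R (the receptor of ectodysplasin A2; chromosome X, 66595637 to 66639298, minus strand) had 1378, 1697 and 1546 in Control and 1315, 1125 and 1504 in BRG1 samples, with an interval of -0.59 to 0.13. TNFRSF11A (RANK; chromosome 18, 62325287 to 62391288, plus strand) had 155, 223 and 136 in Control and 165, 187 and 185 with BRG1, with an interval of -0.55 to 0.68. Their edgeR adjusted p-values were 0.909, 0.489 and 0.926. TNFRSF13C (BAFF receptor) had means of 83.4 in Control and 85.9 in BRG1 samples.

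The other receptors were low or absent. LTBR (lymphotoxin beta receptor), which lies 32.9 kb from TNFRSF1A, had 0, 3.56 and 3.79 normalised counts across the Control samples and 5.00, 9.14 and 13.6 across the BRG1 samples. TNFRSF14 (HVEM) had 1.24, 1.19 and 0 in Control and 4.28, 8.31 and 6.06 with BRG1. The groups did not overlap in either, and neither reached the filter. TNFRSF1B (TNF receptor 2) had 1.24, 11.9 and 0.758 in Control and 0, 0.831 and 0 in BRG1 samples, and TNFRSF4 (OX40) had 4.95, 9.49 and 0.758 in Control and 3.57, 2.49 and 1.52 with BRG1. TNFRSF8 (CD30) held at most 2.86 normalised counts in any sample, CD27 was at the floor in both groups, and the B-cell receptors TNFRSF13B and TNFRSF17 and the GITR gene TNFRSF18 had 0 counts in all 6 samples, which allows at most 0.0472 to 0.101 CPM by sample (3 counts, counting error only).

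**Figure D2:**
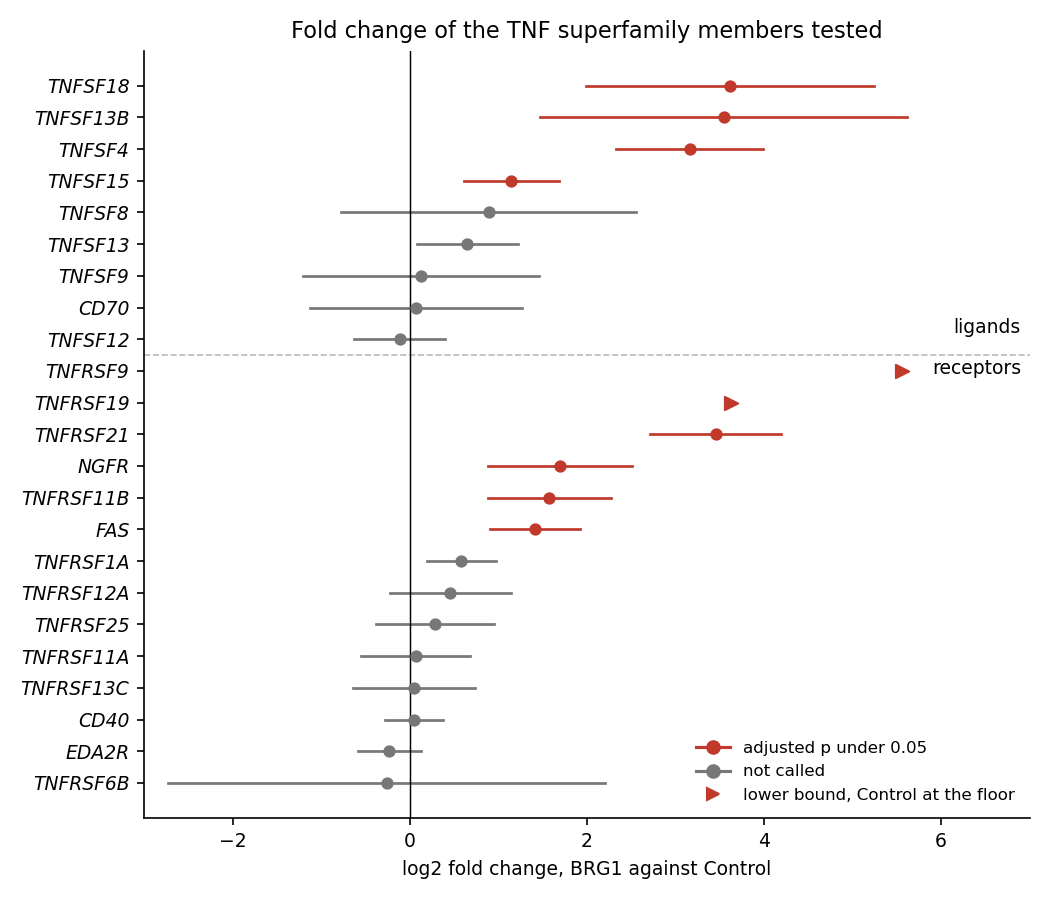
Log2 fold change of BRG1 against Control for the 23 members tested, 9 ligands above the dashed line and 14 receptors below it. Points are edgeR estimates with 95% intervals, red where the adjusted p was under 0.05, and arrowheads are lower bounds for TNFRSF9 and TNFRSF19, whose Control samples were at the floor. The 10 red members lie to the right of 0, and the intervals of the other 13 include 0 except those of TNFSF13 and TNFRSF1A.

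Levels between genes were compared per kilobase of canonical transcript on the CPM scale. By this measure the Control cells carried mainly TNFRSF12A (mean level 181), TNFRSF1A (23.0), TNFSF12 (16.9) and CD40 (12.7). In the BRG1 samples TNFRSF12A was still the highest (248), and TNFRSF21, whose Control level was 5.27, was next at 57.7, above TNFRSF1A at 34.5. NGFR moved from a level of 6.20 to 20.0 and FAS from 2.94 to 7.83. The called ligands stayed lower per length. TNFSF4 had a BRG1 level of 4.80, TNFSF15 of 2.18, TNFSF18 of 0.302 and TNFSF13B of 0.177, against 15.7 for TNFSF12.

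**Figure D3:**
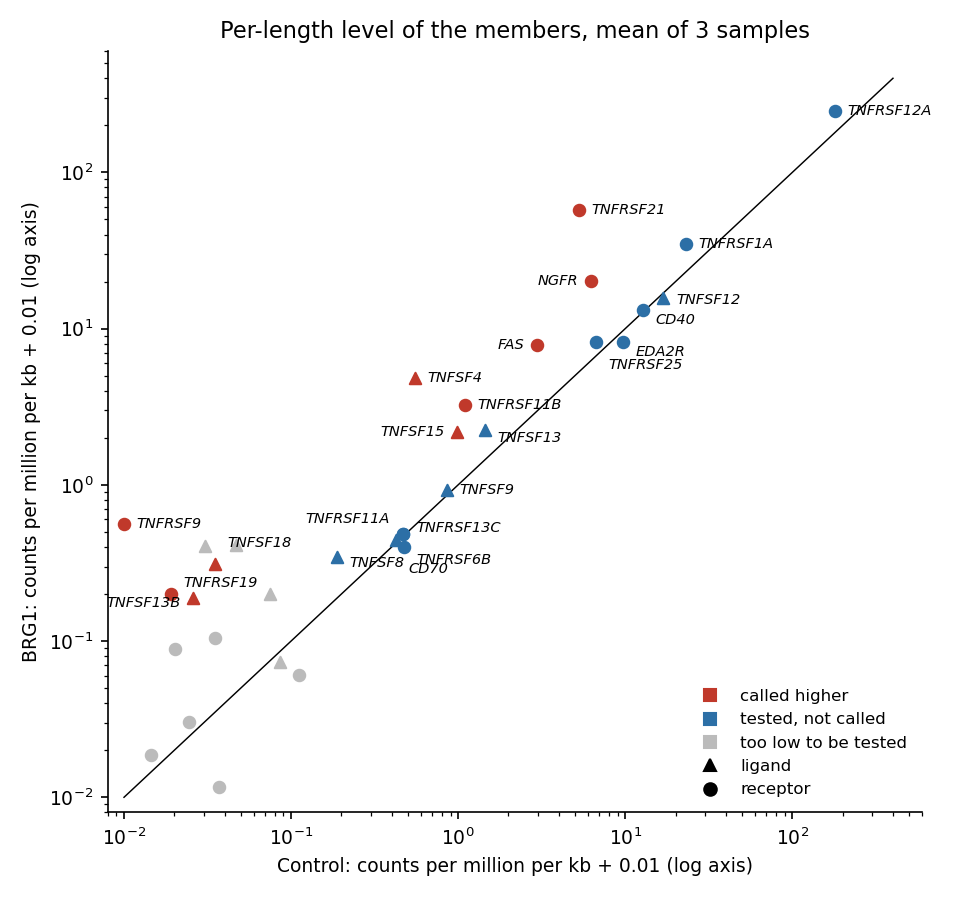
Mean CPM per kilobase of canonical transcript plus 0.01 in Control (horizontal, log axis) and BRG1 samples (vertical, log axis), for members above the floor in at least 1 group. Triangles are ligands, circles are receptors, red marks members called higher, and the line marks equal levels. TNFRSF21 lies far above the line among the abundant members, at 5.27 in Control and 57.7 in BRG1 samples.

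Ligands and receptors were then set beside their partners, for 26 pairs of a member ligand with a member receptor. By edgeR without the block, both partners were called in 0 pairs, 1 partner in 10 pairs and neither in 16. In most pairs at least 1 partner was under the low-count filter, so that this fit could not call both. The 0 pairs therefore do not show that partners failed to rise together. The called receptors TNFRSF21, NGFR and TNFRSF19 were in no pair. By DESeq2, both were called in 2 pairs, those of TNF and of LTA with TNFRSF1A, 1 partner in 12 and neither in 12. For TNFSF4 the per-length level rose from 0.540 to 4.80, while its receptor TNFRSF4 stood at 0.102 and 0.0509. The receptor of TNFSF18 had no count in any sample. TNFRSF9 went from 0 to 0.552 beside a ligand, TNFSF9, of 0.847 and 0.915. FASLG, the ligand of FAS, was at the floor in both groups. TNFSF15 had a receptor, TNFRSF25, at 6.66 in Control and 8.15 in BRG1 samples. The pair with the highest levels in both partners, TNFSF12 and TNFRSF12A, had no call by edgeR without the block, and with it TNFRSF12A was called.

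The genes that act with or downstream of the superfamily were counted in 6 lists of 69 genes, of which 64 were tested. Without the replicate block edgeR called 7 of the 69 higher (10.1%, untested ones included) and 0 lower, near the 9.57% called higher among all tested genes. The other list shares in this paragraph also count untested genes, while the shares of all genes cover tested genes only. DESeq2 called 11 higher (15.9%) and 0 lower, beside 10.7% of all genes it tested. With the replicate number as a block edgeR called 18 higher (26.1%) and 0 lower, beside 13.7%. Over the 64 the median change was 0.29 on the log2 scale. At an unadjusted p under 0.05, 19 were higher and 0 lower, but the share of all genes at that level is not given here. Without Control replicate 2 edgeR called 4 of them higher, beside 1029 of all genes, and without BRG1 replicate 3 it called 15, beside 1680 of all genes.

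Of 21 adaptors and ubiquitin enzymes, 2 were called higher without the block, beside 9.57% of all tested genes, so that the share was near that background. TRAF1, an adaptor of several receptors without a death domain, had 96.5, 84.3 and 91.7 normalised counts without BRG1 and 478, 407 and 196 with it (log2 fold change 1.99, edgeR adjusted p 0.00839). RBCK1 (HOIL-1, a subunit of the linear ubiquitin ligase) had 5773, 4898 and 5168 in Control and 9171, 8349 and 8481 with BRG1 (log2 fold change 0.72, edgeR adjusted p 0.00412). The block raised this count to 8 (38.1%), beside 13.7% of all tested genes, among them TRAF6 and TNFAIP3 (A20, an inhibitor of the pathway). A share near the background was thus seen only without the block. TNFAIP3 had 866, 774 and 280.3 in Control and 5766, 2576 and 484 in BRG1 samples, with an edgeR adjusted p of 0.154 without the block and 0.00769 with it.

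Of the 9 kinases 0 were called by edgeR, with 1 at an unadjusted p under 0.05, and DESeq2 called MAP3K5 alone (ASK1; adjusted p 0.039). Of the 8 NF-kappaB subunits and inhibitors 0 were called by edgeR or DESeq2, with 0 at an unadjusted p under 0.05, and with the block 2 were, NFKB1 (edgeR adjusted p 0.0306) and NFKBIA (edgeR adjusted p 0.0014). NFKBIA, an inhibitor that NF-kappaB itself induces, had 5689, 5202 and 808 normalised counts in the Control and 9926, 8369 and 1816 in the BRG1 samples, so that sample 3 was low in both groups. In the death branch 1 of 7 was called, and with the block 2 were, CFLAR (an inhibitor of caspase activation; edgeR adjusted p 0.0227) as well as MLKL. MLKL, the effector of necroptosis, had 29.7, 10.7 and 20.5 in Control and 54.2, 68.2 and 65.2 with BRG1 (log2 fold change 1.62, edgeR adjusted p 0.0492), while RIPK3, its kinase, held at most 4.55 normalised counts in any sample. CASP8 and FADD, which act directly below FAS, had log2 fold changes of 0.29 and 0.29 and were not called (edgeR adjusted p 0.214 and 0.321). Of the 8 sheddases, co-receptors and related genes 0 were called by edgeR or DESeq2 and 0 lay at an unadjusted p under 0.05, with ADAM17, the protease that releases TNF, at a log2 fold change of -0.054.

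Of 16 genes known to respond to TNF, a list chosen with earlier results of these data known, 4 were called higher by edgeR and 6 by DESeq2, beside 9.57% and 10.7% of all genes tested. CCL2 had 244, 147 and 40.2 normalised counts across the Control samples and 19885, 11742 and 2165 across the BRG1 samples (log2 fold change 6.33, edgeR adjusted p 0.00464). TNFAIP2 had 7.42, 11.9 and 7.58 in Control and 54.2, 109 and 39.4 with BRG1 (2.92, 0.00827), CCL20 had 27.2, 24.9 and 21.2 in Control and 864, 1002 and 71.2 with BRG1 (4.73, 0.0117), and IL6 had 1.24, 7.12 and 3.03 in Control and 769, 117 and 30.3 with BRG1 (6.32, 0.0206), each given with its log2 fold change and edgeR adjusted p. In all 4 the lowest BRG1 value was that of sample 3, and no BRG1 sample overlapped the Control samples. IL6 had under 10 counts in every Control sample and entered the test only through its BRG1 values. CXCL1 and PTGS2 were not called, with log2 fold changes of -0.038 and -0.13, and ICAM1 was too low to be tested. The block added CXCL8 and SELE (edgeR adjusted p 0.0261 and 0.0453).

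**Figure D4:**
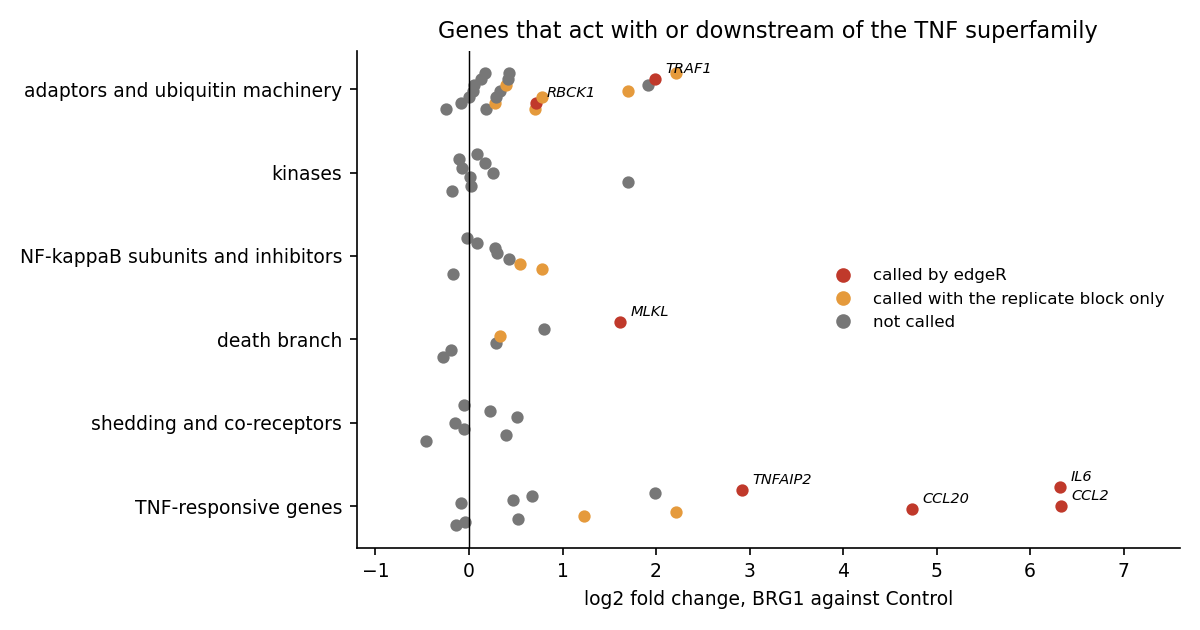
Log2 fold change of BRG1 against Control for the 64 tested genes of the 6 pathway lists. Each point is a gene, placed by list, red where edgeR called it, orange where the call needed the replicate block and grey otherwise, and vertical offsets within a list only separate points. The 7 red genes lie to the right of 0, with CCL2, IL6 and CCL20 farthest.

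Because many members are genes of other cell types, markers of such cells were read in the same libraries. The 6 T and NK cell markers had 0 calls by edgeR or DESeq2, 0 at an unadjusted p under 0.05 and a summed normalised count of 16.6 to 22.0 in Control and 7.48 to 12.1 in BRG1 samples, with CD2 and CD3D at 0 in all. The 5 B and plasma cell markers were all untested, with sums of 8.66 to 11.9 and 8.57 to 16.7. Of the 6 myeloid markers LYZ alone was called (at least 5.98-fold higher, edgeR adjusted p 0.00938), and the sums were 3.56 to 14.8 in Control and 29.3 to 42.4 in BRG1 samples. PTPRC (CD45) stood at 509 ± 164 and 522 ± 194 normalised counts (SD, n = 3; edgeR adjusted p 0.974). Of the 3 endothelial markers 2 were called, VWF (log2 fold change 6.21, edgeR adjusted p 0.000143) and CDH5 (at least 44.6-fold, 0.00299), while PECAM1 was not (0.758), and the sums were 26.0 to 91.7 and 3353 to 3873. Of the 6 granulosa markers CYP19A1 alone was called (log2 fold change 3.74, edgeR adjusted p 0.000718), FOXL2 held at most 1.24 normalised counts, and the sums were 296 to 473 and 642 to 907. LYZ and CDH5, at the floor in Control, entered the test only through their BRG1 values. The part of other cell types in the members' increases was not tested.

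**Figure D5:**
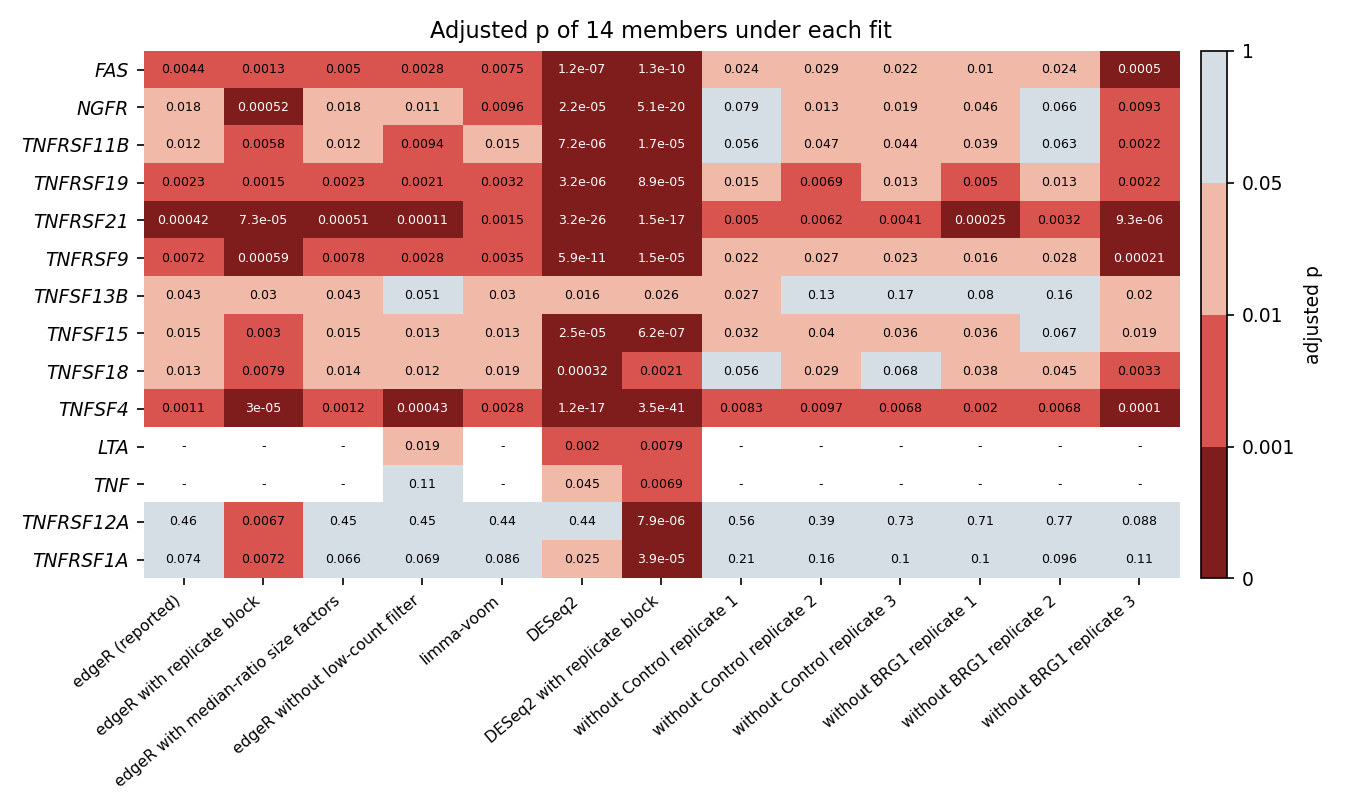
Adjusted p of 14 members, the 10 called by edgeR and 4 called only by DESeq2 or with the replicate block, under the reported fit and each alternative fit. Colours step at 0.001, 0.01 and 0.05, grey marks values above 0.05 and a dash marks a gene that the fit did not test. FAS, TNFRSF19, TNFRSF21, TNFRSF9 and TNFSF4 stay under 0.05 in every fit shown, and TNFSF13B rises above it in 5 of them.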

How the data were processed

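RNA-seq was made from 3 Control and 3 BRG1 samples, described by the submitters as biological replicates. TruSeq mRNA v2 libraries from 500 ng of RNA did not keep strand and were sequenced in pairs of 78 bases. The authors checked reads with FastQC (0.11.5), aligned them with STAR (2.5.3a) to hg38 with GENCODE 24 and quantified transcripts with salmon (0.8.2). What they deposited are estimated counts, 1 value a gene symbol, which the authors summarised with tximport from TPM scaled by transcript length and library size. Reads that fit several genes are divided by a model, so genes with shared exons have uncertain values.

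Here the estimated counts were rounded and tested with edgeR (4.0.16, R 4.3.3): quasi-likelihood test, TMM factors, filterByExpr with a minimum count of 10, no covariate, Benjamini-Hochberg adjustment over 14246 genes, calls at 0.05. The study used DESeq2, which is an alternative here (1.42.0). limma-voom (3.58.1), median-ratio size factors, no filter, a threshold of 0.01, the replicate number as a block and leaving out each sample were the other alternatives. Fits that left out a sample kept the genes that passed the filter on all 6 samples. Scripts were tested on simulated data. Normalised counts are rounded counts divided by a TMM scaling factor, a standard error is the log2 fold change divided by the root of the F value, and intervals are at 95%. A group with at most 3 counts in each sample is at the floor, and folds against it are lower bounds. Samples of the same number deviated together from their group means (Pearson r 0.364, 0.343 and 0.482 across genes, -0.384 to 0.0577 for other pairs), so the numbers were taken to pair the samples. The main test does not use this pairing, and calls made with the replicate number as a block are given beside it where they differ. No pair of samples within a group agreed within sampling noise. Totals of 29699741 to 63613710 counts per sample set the counting error.

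Members called by edgeR, members called only by DESeq2 or under the block, and the 8 uncalled members with the highest mean are given by sample. The members and gene lists were chosen with earlier results of these data known, and a few results on other genes are not reported here. Genes were placed with GENCODE 44, and promoter windows came from RefSeq (GRCh38.p14).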

Additional observations from a re-analysis of the deposited data

How the results depend on the processing

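The 10 higher calls among the members came to 12 with the replicate block, 13 with DESeq2, 14 with both, and 10 with limma-voom, with median-ratio size factors and without the low-count filter. They came to 5 at an adjusted p under 0.01 and to 6 to 10 when a sample was left out, with 6 without BRG1 replicate 2. In each of these alternatives 0 members were called lower. Pathway genes called higher went from 7 to 18 with the replicate block, 11 with DESeq2, 22 with DESeq2 and the block, 4 at 0.01 and 4 to 15 when a sample was left out. Over all genes, the 1364 higher calls became 2086 with DESeq2 and the block and 1029 to 1680 when a sample was left out. The 146 lower calls became 809 with the block, 291 with DESeq2, 1022 with DESeq2 and the block, 31 at 0.01 and 39 to 240 when a sample was left out. Of 220 values of single members under an alternative, 198 stayed on their side of the threshold with their direction, 13 lost the call, 5 gained it and 4 changed sign. The sign changes were all among uncalled members: on the log2 scale TNFSF12 ranged from -0.29 to 0.078 over the fits that left out a sample (positive without Control replicate 3), CD40 from -0.023 (without BRG1 replicate 1) to 0.12, and TNFRSF11A from -0.079 (without Control replicate 3) to 0.30, with -0.00013 without Control replicate 1. The cause was not tested. Beyond TNFRSF1A and TNFRSF12A the block changed no member's call by edgeR, and with DESeq2 it added TNFRSF12A alone. With 3 samples a group and many members near the floor, a member without a call is not shown to be unchanged, and the 17 members under the low-count filter have no edgeR call in the main test, while DESeq2 called LTA and TNF among them.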
